A study of Homo sapiens with 4 samples.

Results

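The 29 genes described here encode enzymes and regulators of cholesterol and fatty acid synthesis. They were taken by symbol from a table of 60302 genes, with 21 in the sterol arm and 8 in the fatty acid arm, and all 29 were listed once and passed the filter of a mean of at least 1 FPKM (fragments scaled to gene length and library depth). The cells are HMLE, an established line of immortalized mammary epithelium, carrying lentiviral short hairpin RNAs that are stably expressed. In the control group (2 samples) the hairpin was non-specific, and in the knockdown group (2 samples) it was directed against HNRNPF, which encodes hnRNP F, a protein that binds G-rich RNA and acts in splicing. The series concerns RNA G-quadruplexes and splicing by this protein, and the comparison asks which polyadenylated transcripts differ in level when it is depleted. The labels do not say how many hairpins were used, so an effect of the hairpin and one of HNRNPF depletion cannot be told apart, and they do not say that samples of a group were cultured separately, so each p-value covers only the spread seen among these samples, which may be technical. No time point or drug is named for any sample.

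Cholesterol is built from acetyl-CoA by way of mevalonate, isoprenoid diphosphates, squalene and lanosterol, and fatty acids are built from the same acetyl-CoA by carboxylation, chain extension, elongation and desaturation. The 2 arms share a pair of transcription factors of the SREBP family. SREBP-2, from SREBF2, acts mainly on sterol genes, and SREBP-1, from SREBF1, mainly on fatty acid genes. Both precursors are held in the endoplasmic reticulum by SCAP and the INSIG proteins while sterols are plentiful, and are cut and sent to the nucleus when sterols run low. In the mammary gland the fatty acid enzymes are best known for making milk fat.

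HNRNPF itself was at 154 and 153 FPKM in controls 1 and 2, against 18.7 and 16.6 FPKM for knockdown samples 1 and 2, so all 4 samples matched their labels. Its log2 fold change on the log2(FPKM + 1) scale was -3.05 (SE 0.0986; limma, adjusted p = 0.0251), and it was the 1 gene of 13110 tested that passed. It missed the threshold without control 1 (log2 fold change -3.05; limma, adjusted p = 0.262) or control 2 (-3.06; adjusted p = 0.104). FPKM carry no fragment totals. The lowest steps of single-exon genes imply between 77400000 and 85000000 fragments per library, although only 42.8% to 45.6% of low values came out as whole multiples of that step (tolerance 0.02). The 7 basal mammary markers were all expressed and summed to between 8332 and 11741 FPKM. KRT17 was at 975 and 1573 FPKM in controls, against 1786 and 2170 FPKM in knockdown. TP63 was at 19.5 and 26.5 FPKM, then 30.9 and 28.7 FPKM. Both genes were higher in knockdown without overlap (2 of 7, against 17.5% of all genes), and the other 5 overlapped. KRT17 and TP63 had adjusted p of 0.833 and 0.864 (limma). Of 5 epithelial markers 4 were expressed, with KRT19 reaching at most 0.566 FPKM. Of those 4, CDH1 overlapped between the groups, at 37.6 to 48.1 FPKM in 3 samples and 90.01 FPKM in knockdown 2. EPCAM (56.4 and 45.9 FPKM in controls, against 38.6 and 38.9 FPKM in knockdown) and KRT18 (172 and 177 FPKM, then 121 and 146 FPKM) were lower in both knockdown samples, and DSP (136 and 143 FPKM, then 190 and 181 FPKM) was higher. These 3 had unadjusted p of 0.0349, 0.0272 and 0.00765 (limma, adjusted p from 0.608 to 0.805). Of all genes, 6.08% had an unadjusted p under 0.05, and 34.6% did not overlap between the groups. The part of the marker genes in the members' differences was not tested. Of 7 fibroblast markers, COL1A1 was at 9.24 to 12.3 FPKM and the others reached at most 0.828 FPKM. Of 8 leukocyte, endothelial and adipocyte markers, CD68 was at 11.2 to 12.1 FPKM, CD3E was listed at 0 in all 4 samples and the others reached at most 0.227 FPKM.

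Promoter sequence was looked up for all 29 genes, and 25 were matched in RefSeq windows of 300 bases on GRCh38.p14, running from 250 bases before the start site to 50 bases from it. The 25 genes have 34 windows because some have several start sites. Each window was searched on both strands for CCAAT, the box bound by NF-Y, which often works beside SREBP, for TCACNCCAC, a form of the sterol regulatory element, for the E-box CACGTG and for the GC box GGGCGG. None of these 4 patterns contains another. A CCAAT box was in 24 of the 34 windows (70.6%), against 34.6% of all 35116 windows and 34.9% of the windows of tested genes. Counted by gene, 16 of 18 sterol genes (88.9%) and 4 of 7 fatty acid genes (57.1%) had one, against 39.7% of all genes and 43.4% of tested genes. The searched form of the sterol regulatory element was in 1 window, that of SREBF2 (2.94%), against 1.13% of all windows and 1.11% of the windows of tested genes. Other forms of the element were not searched, and ACAT2, FDFT1, SQLE and FASN had no window to search. The E-box was in 11.8% of member windows, 7.26% of all windows and 9.31% of the windows of tested genes. By gene it was in 12.0% of members and 12.7% of tested genes. The GC box was in 88.2% of member windows, 45.0% of all windows and 66.9% of the windows of tested genes. These matches describe the letters in the windows and do not show binding. The windows of SREBF2 (chr22:41832855-41833154, plus strand), MVK (chr12:109573544-109573843, plus strand), INSIG1 (chr7:155297628-155297927, plus strand) and SC5D (chr11:121292521-121292820, plus strand) are printed. SREBF2 holds the one match to TCACNCCAC. The other 3 genes are those with a matched window among the 4 members of smallest unadjusted p between the groups. Capitals mark CCAAT, or its reverse complement ATTGG, and the sterol regulatory element.
SREBF2: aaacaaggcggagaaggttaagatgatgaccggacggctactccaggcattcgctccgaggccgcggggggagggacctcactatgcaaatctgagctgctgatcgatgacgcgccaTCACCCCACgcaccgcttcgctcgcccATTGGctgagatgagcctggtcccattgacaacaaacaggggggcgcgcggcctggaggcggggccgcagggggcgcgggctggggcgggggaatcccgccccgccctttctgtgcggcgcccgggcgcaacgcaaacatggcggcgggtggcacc
MVK: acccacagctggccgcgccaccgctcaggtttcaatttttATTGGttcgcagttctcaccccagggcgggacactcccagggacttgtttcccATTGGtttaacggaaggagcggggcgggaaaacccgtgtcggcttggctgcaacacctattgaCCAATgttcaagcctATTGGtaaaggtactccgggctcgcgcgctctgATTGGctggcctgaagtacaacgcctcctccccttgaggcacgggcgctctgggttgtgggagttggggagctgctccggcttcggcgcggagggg
INSIG1: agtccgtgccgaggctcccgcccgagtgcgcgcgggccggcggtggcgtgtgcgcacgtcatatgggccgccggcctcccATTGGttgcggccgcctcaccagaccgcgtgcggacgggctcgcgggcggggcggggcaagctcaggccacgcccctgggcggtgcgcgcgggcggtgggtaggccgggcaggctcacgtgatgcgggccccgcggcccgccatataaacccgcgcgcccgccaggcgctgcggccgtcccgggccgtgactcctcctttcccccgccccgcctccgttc
SC5D: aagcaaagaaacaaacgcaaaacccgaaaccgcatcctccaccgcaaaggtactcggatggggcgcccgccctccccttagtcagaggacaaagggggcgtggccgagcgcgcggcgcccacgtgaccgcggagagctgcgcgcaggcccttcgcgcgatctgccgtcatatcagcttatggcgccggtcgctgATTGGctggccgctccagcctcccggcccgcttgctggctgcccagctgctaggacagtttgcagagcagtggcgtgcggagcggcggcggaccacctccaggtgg

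No member passed the adjusted threshold of 0.05 between knockdown and control (0 of 29; limma, adjusted p from 0.685 to 0.999), against 0.00763% of all genes tested. The sterol arm stood slightly higher in knockdown, with 15 of 21 genes above 0 and a median log2 fold change of 0.14. The fatty acid arm stood slightly lower, with 7 of 8 genes below 0 and a median of -0.11. With all 4 samples the median over all 13110 genes was 0.0012, with 50.2% above 0 and 49.8% below. Leaving out a sample moved that median too. Without control 1 the sterol median was 0.061 and that of all genes 0.062, so the sterol arm did not stand above it. The fatty acid median was -0.18 without knockdown 1 (all genes -0.057) and -0.05 without knockdown 2 (all genes 0.061). At an unadjusted p under 0.05 there were 4 members, all of the sterol arm, which holds 21 of the 29. ACAT2 and SC5D were higher (2 members, against 3.06% of all genes), and MVK and INSIG1 lower (2 members, against 3.02%). Together they are 13.8% of the members, against 6.08% of all genes. The 2 groups did not overlap for 13 members (44.8%), against 34.6% of all genes. They were 9 higher (31.0%, against 17.5%) and 4 lower (13.8%, against 17.1%). In bulk RNA a smaller share of cells that express a gene and less RNA per cell cannot be told apart.

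**Figure D1:**
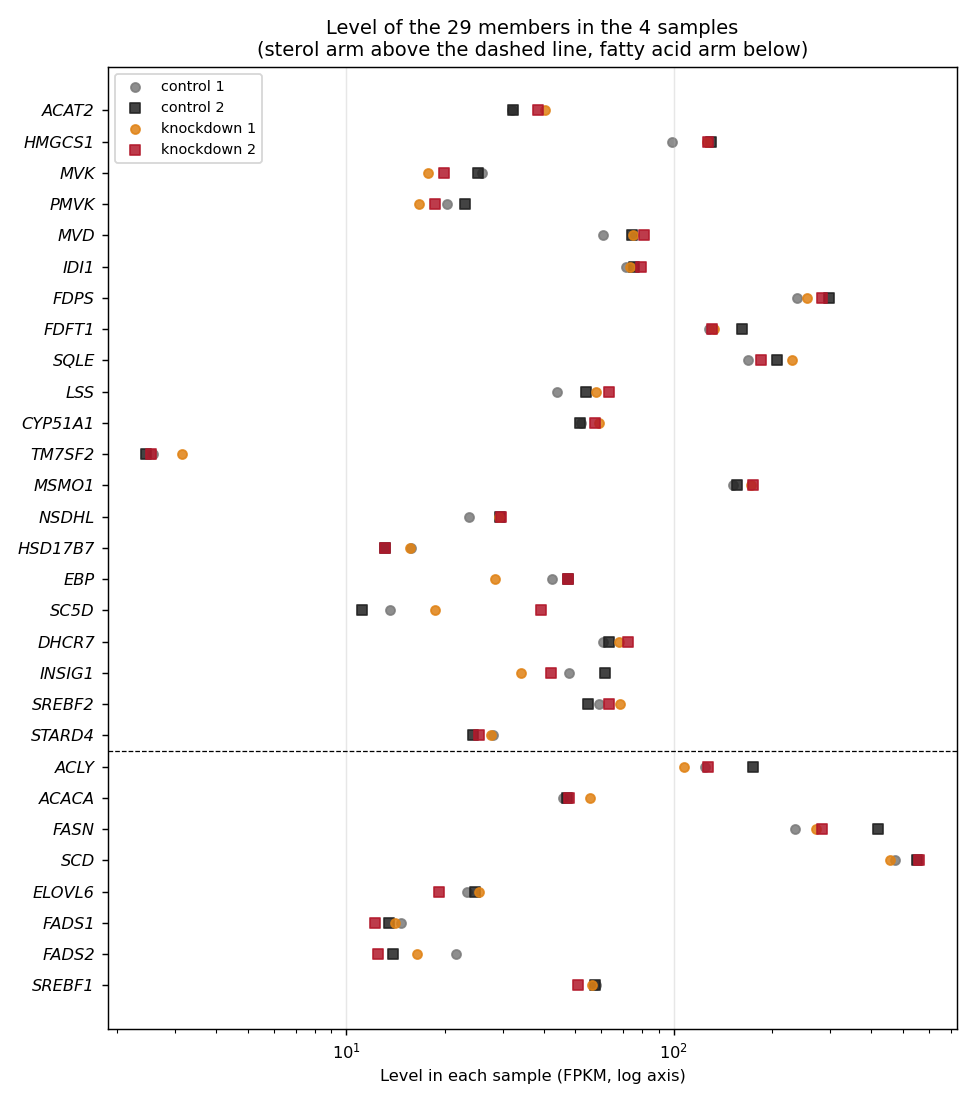
FPKM of each of the 29 members on a log axis, with 1 point per sample (grey and black for controls, orange and red for knockdown; circles for replicate 1, squares for replicate 2). SCD has the highest mean at 511 FPKM and TM7SF2 the lowest at 2.68 FPKM, and for most members the 4 points lie close together.

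The members differed widely in level. Means over the 4 samples, which FPKM allows to be compared per length, ran from 2.68 FPKM for TM7SF2 to 511 FPKM for SCD. SCD stood above 99.3% of tested genes, and 16 members stood above 90% of them. The highest after SCD were FASN at 302 FPKM, FDPS at 268 FPKM and SQLE at 197 FPKM. The controls lay at 234 and 420 FPKM for FASN and at 238 and 298 FPKM for FDPS, so these 2 cannot be ordered beyond their spread. SQLE, at 168 to 229 FPKM, lay below both in every sample. TM7SF2, a sterol C14 reductase, was well under its neighbour in order, FADS1 at 13.6 FPKM. Together the 29 genes held 0.604% and 0.74% of all FPKM in controls, against 0.653% and 0.684% in the knockdown samples. The fatty acid genes lie on 4 chromosomes, and 4 of the 8 (SREBF1, ACACA, ACLY and FASN) are on chromosome 17. The sterol genes are spread over 13 chromosomes.

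The first steps of the sterol route make mevalonate and turn it into isoprenoid units. In this group of 7 genes, 5 had log2 fold changes above 0 and 2 below, with a median of 0.06. ACAT2, the cytosolic thiolase that joins acetyl-CoA units (chromosome 6, 160181360 to 160200087, plus strand, GRCh37), was at 32.0 and 32.3 FPKM in controls, against 40.4 and 38.5 FPKM in the knockdown samples. The groups did not overlap and each was tight, and ACAT2 was 1.23-fold higher in knockdown (log2 fold change 0.29, 95% interval 0.05 to 0.53; limma, unadjusted p = 0.028, adjusted p = 0.785). Its 3′ end meets that of TCP1 on the other strand, and TCP1 was at 119 and 127 FPKM in controls, against 120 and 114 FPKM in knockdown. SOD2, also listed across it on that strand, was at 41.6 and 27.9 FPKM, then 27.0 and 40.3 FPKM.

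MVK and PMVK, the kinases that phosphorylate mevalonate in successive steps, stood in the opposite direction. MVK (chromosome 12, 110011060 to 110035922, plus strand, GRCh37) was at 26.0 and 25.2 FPKM in controls, against 17.8 and 19.8 FPKM in the knockdown samples. Both knockdown values lay below both controls, 1.36-fold lower on average (log2 fold change -0.43, 95% interval -0.71 to -0.14; limma, unadjusted p = 0.013, adjusted p = 0.685). Of the 29 members, MVK had the smallest p. PMVK was at 20.4 and 23.0 FPKM in controls, against 16.7 and 18.7 FPKM in knockdown, again without overlap (log2 fold change -0.28; limma, adjusted p = 0.855).

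The start site of MVK lies 290 bases from that of MMAB, a cobalamin adenosyltransferase gene on the other strand, in RefSeq, and their promoter windows share 211 bases. The 5 CCAAT boxes of the MVK window all lie in the shared bases, so the 5 in the MMAB window are the same ones. MMAB, named here after its values were seen, was at 21.6 and 19.8 FPKM in controls, against 16.4 and 14.0 FPKM in knockdown. It was 1.36-fold lower, the same fold as MVK (log2 fold change -0.42; limma, unadjusted p = 0.0251, adjusted p = 0.777). The 2 genes overlap at their 5′ ends in the deposited coordinates. The libraries were stranded, but whether the counting used strand is not given in the sources used here, so fragments in that overlap cannot be told apart.

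The other 4 mevalonate genes were closer to the controls. MVD, the decarboxylase that ends the mevalonate steps, was at 60.6 and 74.7 FPKM in controls, against 75.0 and 80.9 FPKM in knockdown. The groups were separated by 0.366 FPKM, and the controls differed from each other by more than knockdown 1 did from control 2. The log2 fold change of 0.21 became 0.061 without control 1 and 0.36 without control 2. HMGCS1, which makes HMG-CoA, was at 98.8 FPKM in control 1 and at 130 FPKM in control 2, 127 FPKM in knockdown 1 and 128 FPKM in knockdown 2. Control 1 alone was low, and the groups overlapped. IDI1, the isomerase of isopentenyl diphosphate, ran from 71.4 to 79.5 FPKM, and FDPS, farnesyl diphosphate synthase, from 238 to 298 FPKM. Both overlapped between the groups, with log2 fold changes of 0.06 (95% interval -0.19 to 0.31) and 0.02 (-0.38 to 0.41).

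Squalene and lanosterol are made by FDFT1, SQLE and LSS. LSS, lanosterol synthase, was at 43.9 and 53.8 FPKM in controls, against 57.7 and 63.5 FPKM in the knockdown samples. Its groups did not overlap, with knockdown 1.24-fold higher (log2 fold change 0.31, 95% interval -0.05 to 0.67; limma, adjusted p = 0.85). Without control 1 its log2 fold change was 0.17. SQLE, the epoxidase that is a slow step of the route, was at 168 and 206 FPKM in controls, against 229 and 184 FPKM in knockdown, with overlap. FDFT1, squalene synthase, was at 128, 132 and 130 FPKM in control 1 and the 2 knockdown samples and at 161 FPKM in control 2, which stood alone.

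Of the 8 genes that turn lanosterol into cholesterol, 6 had log2 fold changes above 0, with a median of 0.16. For 4 of them both knockdown samples lay above both controls (against 17.5% of all genes), and for none of the 8 did both lie below (against 17.1%). CYP51A1, the lanosterol demethylase, was at 52.2 and 51.8 FPKM in controls, against 59.0 and 57.5 FPKM in knockdown. MSMO1, the C4 methyl sterol oxidase, was at 151 and 156 FPKM, then 172 and 175 FPKM. DHCR7, which makes cholesterol in the last reduction of one branch, was at 60.7 and 63.3 FPKM, then 67.8 and 72.6 FPKM. These 3 genes had close values within each group and similar log2 fold changes of 0.16, 0.18 and 0.18, or 12.05% to 13.2% more FPKM. Their 95% intervals all included 0, the lowest bound being -0.07 and the highest 0.42 (limma, adjusted p from 0.872 to 0.89).

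SC5D, the sterol C5 desaturase (chromosome 11, 121163162 to 121179403, plus strand, GRCh37), had the largest log2 fold change of the 29 members. It was at 13.6 and 11.2 FPKM in controls, against 18.6 FPKM for knockdown 1 and 39.2 FPKM for knockdown 2. Both knockdown samples were above both controls, but they differed from each other by more than knockdown 1 did from the controls. The log2 fold change was 1.08 (95% interval 0.10 to 2.05; limma, unadjusted p = 0.0367, adjusted p = 0.806). It was 0.56 without knockdown 2 and 1.59 without knockdown 1.

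The remaining post-lanosterol genes overlapped between the groups. EBP, the sterol isomerase, was at 42.4 and 47.6 FPKM in controls, against 28.4 FPKM for knockdown 1 and 47.6 FPKM for knockdown 2. Knockdown 1 alone was low, and without it the log2 fold change of -0.28 became 0.08. NSDHL, a C4 decarboxylating dehydrogenase, was at 23.7 FPKM in control 1 and between 29.3 and 29.6 FPKM in the other 3 samples, so its log2 fold change of 0.15 became 0.0032 without control 1. HSD17B7, the 3-ketosteroid reductase of the route, was at 15.7 and 13.2 FPKM in controls, against 15.7 and 13.1 FPKM in knockdown, so its values went with the replicate number and not with the group. Its near copy HSD17B7P2 was at 1.27 to 2.96 FPKM, and how fragments were shared between them is not given in the sources used here. TM7SF2 was at 2.58 and 2.45 FPKM in controls, against 3.15 and 2.54 FPKM in knockdown. It meets the end of VPS51 on the same strand, a gene at 23.9 to 29.6 FPKM, so its low value is uncertain.

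Among sterol regulators, INSIG1 and SREBF2 differed in opposite directions. INSIG1, which retains the SREBP precursors and is itself an SREBP target (chromosome 7, 155089486 to 155101945, plus strand, GRCh37), was at 47.7 and 61.5 FPKM in controls, against 34.1 and 42.3 FPKM in knockdown. The groups did not overlap, although within each group sample 2 was higher than sample 1. INSIG1 was 1.43-fold lower (log2 fold change -0.50, 95% interval -0.97 to -0.03; limma, unadjusted p = 0.0411, adjusted p = 0.808). Without control 2 its log2 fold change was -0.32. SREBF2 was at 59.2 and 54.5 FPKM in controls, against 68.5 and 63.6 FPKM in knockdown, 1.16-fold higher without overlap (log2 fold change 0.21, 95% interval -0.05 to 0.47; limma, adjusted p = 0.864). STARD4, a cytosolic sterol carrier, was at 28.0 and 24.3 FPKM, then 27.6 and 25.4 FPKM, with overlap.

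**Figure D2:**
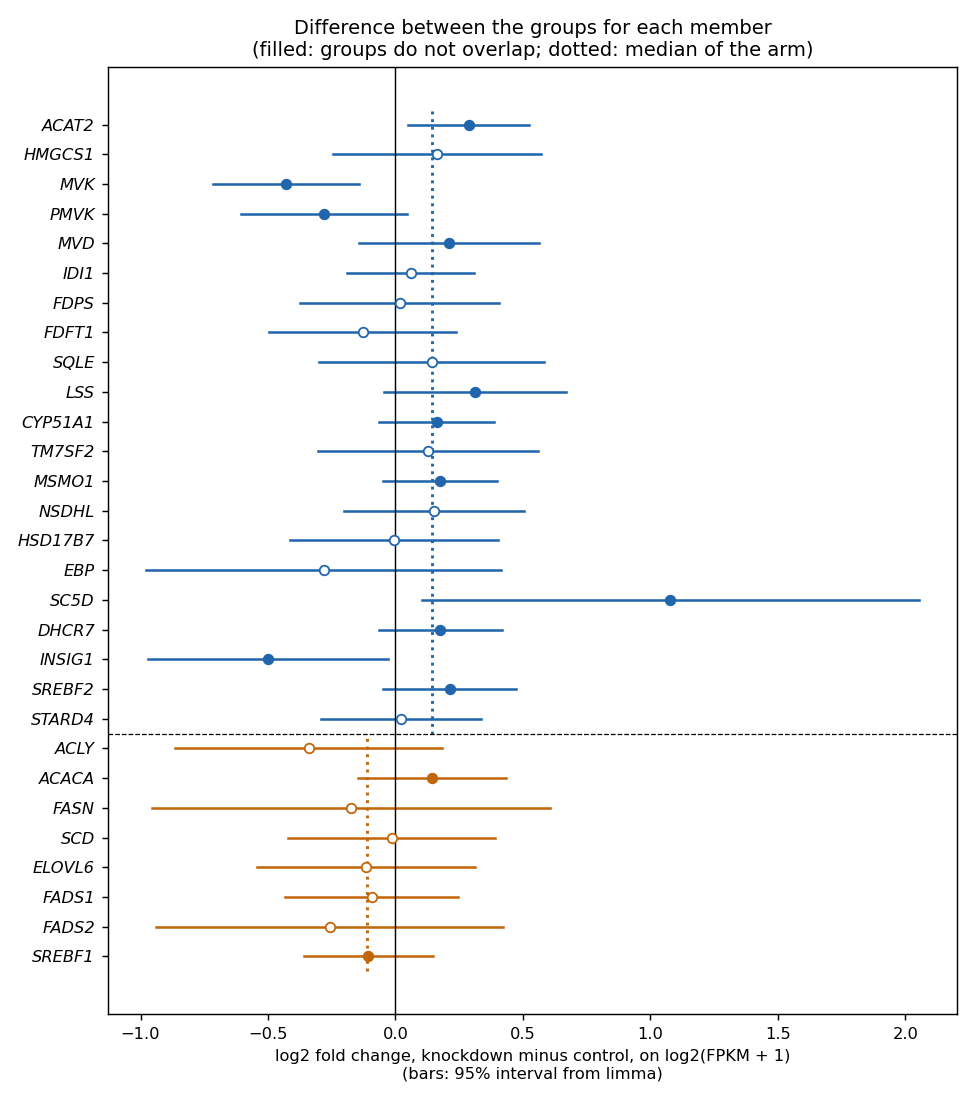
Log2 fold change of each member, knockdown minus control, on log2(FPKM + 1), with 95% intervals from limma (blue for the sterol arm, orange for the fatty acid arm; filled points where the groups do not overlap). The dotted medians are 0.14 for the sterol arm and -0.11 for the fatty acid arm, and only the intervals of ACAT2, MVK, SC5D and INSIG1 leave out 0.

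In the fatty acid arm no member had an unadjusted p under 0.05 (0 of 8, against 6.08% of all genes). With 8 genes, 0 is near that share. ACLY, which cleaves citrate to supply acetyl-CoA to both arms, was at 125 and 175 FPKM in controls, against 107 and 127 FPKM in knockdown. Control 2 was the highest by far, and control 1 lay just under knockdown 2. The log2 fold change was -0.34 (95% interval -0.86 to 0.18; limma, adjusted p = 0.905). It was -0.10 without control 2, -0.22 without knockdown 1 and -0.58 without control 1. ACACA, the acetyl-CoA carboxylase that commits carbon to fatty acids, was at 46.0 and 47.2 FPKM in controls, against 55.4 and 47.9 FPKM in knockdown. It was the 1 fatty acid gene above 0, separated by 0.651 FPKM (log2 fold change 0.14, but 0.038 without knockdown 1 and 0.25 without knockdown 2).

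FASN, fatty acid synthase, was at 234 FPKM in control 1, 420 FPKM in control 2, and 271 and 284 FPKM in knockdown. Both knockdown samples lay between the controls. Its log2 fold change of -0.18 (95% interval -0.96 to 0.60) became 0.25 without control 2 and -0.60 without control 1, so 1 control decided its sign.

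The desaturases and elongase all overlapped between the groups. SCD, the stearoyl-CoA desaturase, was at 474 and 553 FPKM in controls, against 458 and 560 FPKM in knockdown, with sample 2 the higher in each group. Its log2 fold change was -0.02, with a 95% interval of -0.42 to 0.39. ELOVL6, which extends palmitate, was at 23.4 and 24.7 FPKM in controls, against 25.4 FPKM for knockdown 1 and 19.2 FPKM for knockdown 2. FADS1 and FADS2, the delta-5 and delta-6 desaturases of polyunsaturated fatty acids, lie on opposite strands of chromosome 11. In the deposited coordinates the whole of FADS1 (61567097 to 61596790) lies inside FADS2 (61560452 to 61634826). As for MVK, the use of strand is not given, so fragments in that overlap cannot be told apart. FADS1 ran from 12.2 to 14.7 FPKM. FADS2 was at 21.6 FPKM in control 1 and between 12.5 and 16.4 FPKM in the others. FEN1, on the same strand and listed across the start of FADS2, was at 38.4 to 45.3 FPKM. Summed with it, the log2 fold change of FADS2 was -0.19, against -0.26 alone. FEN1 makes up the larger part of that sum, and its own log2 fold change was -0.15.

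SREBF1 was at 58.0 and 57.5 FPKM in controls, against 56.2 and 51.0 FPKM in knockdown. The groups did not overlap, but knockdown 1 lay 1.28 FPKM below control 2 (log2 fold change -0.11, 95% interval -0.36 to 0.15; limma, adjusted p = 0.964). It was -0.039 without knockdown 2 and -0.17 without knockdown 1. SREBF2 and SREBF1 thus had point estimates on either side of 0, and both intervals included 0.

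Set side by side, the median log2 fold changes of the 2 arms differed by 0.25. The distance between the arms was also followed in each sample, as the median deviation of the sterol genes from their 4-sample means minus that of the fatty acid genes. It was -0.0764 and -0.0616 in controls, against 0.035 and 0.172 in knockdown, so both knockdown samples were above both controls. Within a group it varied with an SD of 0.0687 (pooled over the groups). Taking each knockdown sample against each control, the sterol median lay above the fatty acid median in all 4 combinations, by between 0.094 and 0.23. The smallest distance was that of knockdown 1 against control 2, where the fatty acid median was 0.0031 and the sterol median 0.097. There the median of all genes was 0.11, above both arms. For knockdown 2 against control 1 the median of all genes was -0.11, below the fatty acid median of -0.08. It was -0.00485 for knockdown 1 against control 1 and 0.0045 for knockdown 2 against control 2. The 4 combinations share samples. Without 1 sample the difference lay between 0.17, when control 1 was left out, and 0.30. With 2 samples a group an exact permutation p is never under 0.333, and no test over the members was made.

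Summed FPKM weight the arms by their most abundant genes. The sterol sum was 1383 and 1595 FPKM in controls, against 1549 and 1595 FPKM in knockdown, so control 1 alone was low. The fatty acid sum was 996 and 1304 FPKM in controls, against 1004 and 1113 FPKM in knockdown, so control 2 alone was high. SCD and FASN made up between 71.1% and 75.8% of it, and FASN alone took 32.2% in control 2 against 23.5% to 27.0% elsewhere. The ratio of the sums was 1.39 and 1.22 in controls, against 1.54 and 1.43 in knockdown. The groups did not overlap, but control 1 lay closer to knockdown 2 than to control 2.

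**Figure D3:**
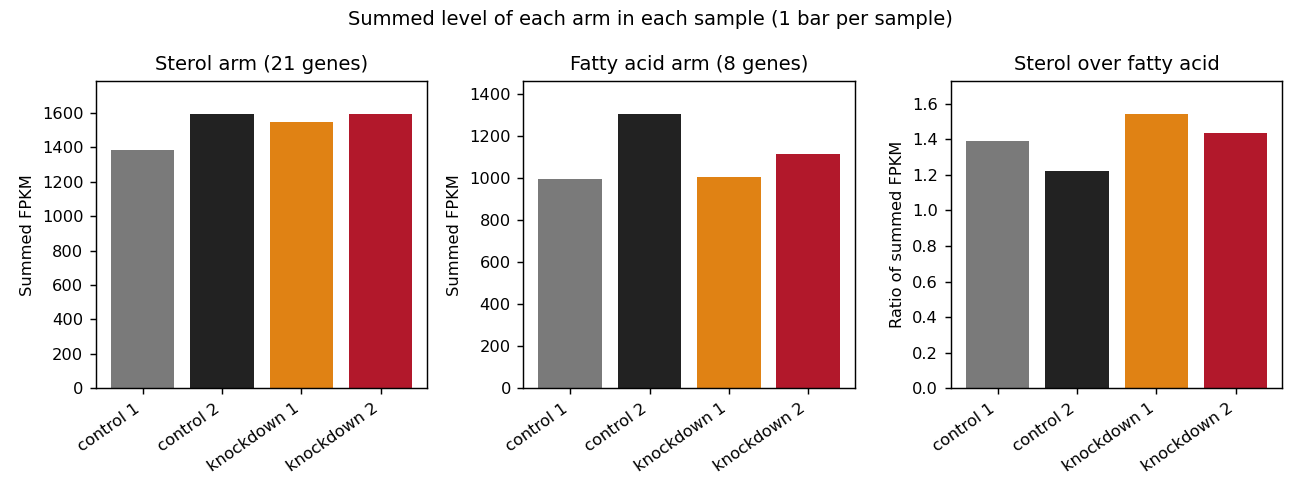
Summed FPKM of the 21 sterol genes and the 8 fatty acid genes, and their ratio, with 1 bar per sample and no error bars. The sterol sum is lowest in control 1 (1383 FPKM), the fatty acid sum is highest in control 2 (1304 FPKM), and the ratio is 1.39 and 1.22 in the controls against 1.54 and 1.43 in knockdown.

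Other genes of these pathways were counted in 6 lists of 64 genes, 58 of them tested. None passed the adjusted threshold (0 of 58), and 22 lay above 0 and 36 below, with a median of -0.05. At an unadjusted p under 0.05 there were 2 higher and 2 lower (4 of 58, against 6.08% of all genes). Both knockdown samples were above both controls for 10 of them (against 17.5% of all genes) and below for 16 (against 17.1%).

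Among the SREBP machinery (SCAP, INSIG2, the site proteases MBTPS1 and MBTPS2 and the ubiquitin ligase RNF139), 3 of 5 lay above 0, with a median of 0.10. MBTPS1, which makes the first cut in the SREBP precursors, was at 21.2 and 21.1 FPKM in controls, against 23.3 and 22.2 FPKM in knockdown, without overlap (log2 fold change 0.10; limma, adjusted p = 0.978). MBTPS2, which makes the next cut, and RNF139 had log2 fold changes of 0.12 and -0.12.

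Sterol handling genes were split 6 and 6, with a median of -0.06. ABCG1, a sterol exporter, was at 10.4 and 9.53 FPKM in controls, against 14.5 and 17.1 FPKM in knockdown. It was 1.59-fold higher without overlap, a log2 fold change of 0.61 (95% interval 0.26 to 0.97; limma, unadjusted p = 0.0078, adjusted p = 0.608). NR1H3, which encodes LXR-alpha, was at 5.61 and 4.65 FPKM, then 4.26 and 3.43 FPKM. NR1H2, which encodes LXR-beta, went the other way, at 22.6 and 27.3 FPKM, then 28.3 and 32.2 FPKM. Neither gene passed the adjusted threshold. NPC2, which moves cholesterol out of lysosomes, was at 89.2 and 78.7 FPKM, then 69.7 and 71.9 FPKM.

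The isoprenoid branches, which use the farnesyl and geranylgeranyl products of the mevalonate steps, had 3 genes above 0 and 8 below, with a median of -0.09. FNTA, the shared alpha subunit of the protein farnesyl and geranylgeranyl transferases, was at 19.6 and 20.0 FPKM in controls, against 14.4 and 12.7 FPKM in knockdown. It was 1.46-fold lower (log2 fold change -0.52; limma, unadjusted p = 0.00806, adjusted p = 0.608). FNTB, the beta subunit of the farnesyl enzyme, was at 6.42 and 5.17 FPKM, then 2.08 and 3.11 FPKM (log2 fold change -0.93; limma, unadjusted p = 0.0095, adjusted p = 0.636). Summed with the readthrough gene CHURC1-FNTB, FNTB stood at 10.03 and 6.57 FPKM, then 6.76 and 4.02 FPKM, so the groups overlapped and the log2 fold change was -0.55. RABGGTA, the alpha subunit of the enzyme that prenylates Rab proteins, was higher, at 21.0 and 20.1 FPKM, then 30.6 and 26.1 FPKM (log2 fold change 0.44; limma, unadjusted p = 0.0166, adjusted p = 0.73).

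Genes that supply fatty acid synthesis had 4 of 9 tested above 0 and a median of -0.03. ACSS2, which makes acetyl-CoA from acetate, was at 61.7 and 62.2 FPKM in controls, against 56.1 and 54.5 FPKM in knockdown (log2 fold change -0.16; limma, adjusted p = 0.89). The malic enzyme gene ME1 and MLXIP, a glucose-sensing transcription factor gene, had log2 fold changes of 0.13 and 0.18. Other elongation and desaturation genes had 3 of 11 above 0 and a median of -0.04. SCD5, a second stearoyl-CoA desaturase gene, was at 11.4 and 15.8 FPKM, then 17.3 and 20.2 FPKM (log2 fold change 0.45; limma, adjusted p = 0.84). FADS3 was at 34.5 and 33.3 FPKM, then 31.2 and 26.1 FPKM, and ELOVL1 had a log2 fold change of -0.19. Acyl activation and glycerolipid genes had 3 of 10 above 0 and a median of -0.05. They were led by AGPAT2, an acyltransferase gene (18.3 and 19.3 FPKM, then 21.3 and 22.4 FPKM), DGAT2 (log2 fold change 0.36) and ACSL4 (-0.14).

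**Figure D4:**
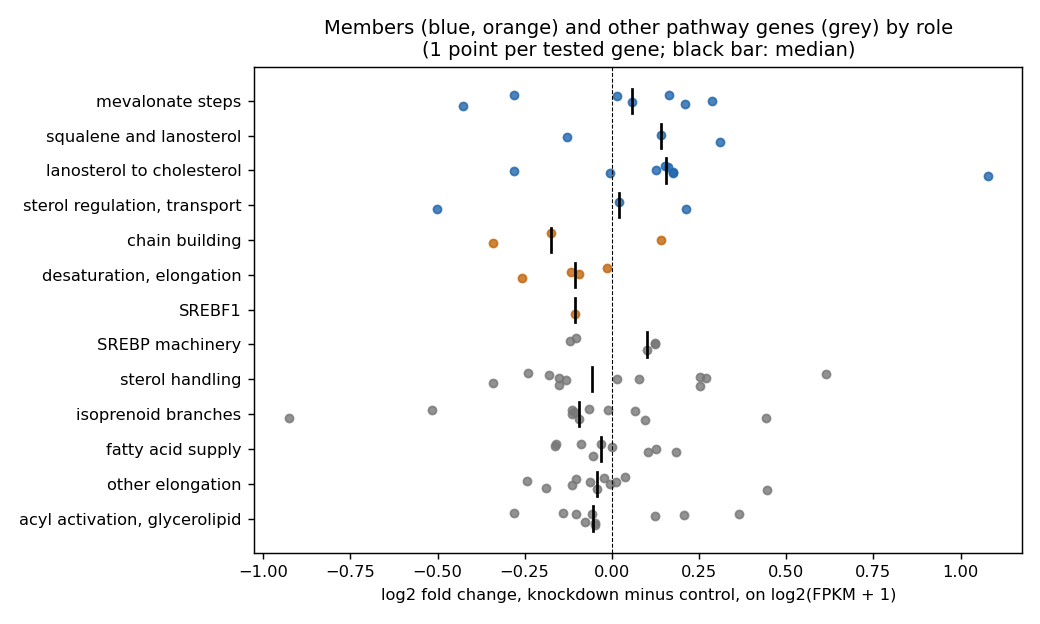
Log2 fold change, knockdown minus control, of each tested gene by role, with members in blue (sterol) and orange (fatty acid), other pathway genes in grey and a black bar at each median. Post-lanosterol genes have a median of 0.16 and SREBP machinery of 0.10, while the other grey groups have medians between -0.09 and -0.03.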

How the data were processed

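PolyA-selected RNA of 4 HMLE samples, 2 a group, was measured as stranded paired-end TruSeq libraries. The deposited values are FPKM, 1 per gene and sample, scaled by the authors for length and depth, per the file headers. The submitters' processing notes list STAR 2.5.3a, Cuffdiff 2.2.1 and GRCh37, with no roles. Not given in the sources used here are the annotation release, the use of strand and the handling of multi-mapping fragments. Titles assigned the groups.

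FPKM were transformed as log2(FPKM + 1), which understates changes of low genes, and 13110 genes, those whose mean reached 1 FPKM, were fitted with limma 3.58.1 (R 4.3.3, empirical Bayes with trend, no covariate, two-sided, Benjamini-Hochberg over all genes, threshold 0.05). The fit was tested on simulated data. Folds are ratios of mean FPKM. The 29 members and the lists were chosen with earlier results of these data known, so arms are described by counts and medians with no list test. All members are named, with up to 3 genes of smallest p in each other list, and NR1H2 beside NR1H3. Promoter windows came from RefSeq on GRCh38.p14, and coordinates of genes from the table. The alternatives were other pseudocounts, filters, scalings and limma settings, the replicate block, enzymes only, summing rows of a symbol, and each sample left out. A further pathway gene is not reported here. Summing with overlapping genes was added after seeing the data. Python 3.11.15 made the summaries.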

Additional observations from a re-analysis of the deposited data

How the results depend on the processing

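No member passed in any setting run (0 of 29). The number of genes past the threshold (1) was 0 with no filter, with no intensity trend and with the replicate block, and between 0 and 2 without 1 sample. HNRNPF kept a log2 fold change of -3.0545 with an adjusted p of 0.2586 with no filter, 0.09953 with no trend and 0.1641 with the replicate block (limma). Without 1 sample it lay between -3.13 and -2.98, with an adjusted p of 0.262 when control 1 was left out and 0.104 when control 2 was. The replicate block changed no other call. Same-numbered samples deviated together across genes (r = 0.39 over 2 pairs), but the labels do not say that the number marks a pairing.

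Without 1 sample the sterol median (0.14) lay between 0.061 and 0.156, the fatty acid median (-0.11) between -0.18 and -0.05 and their difference (0.25) between 0.17 and 0.30. The lowest sterol median and difference came without control 1, where the median of all genes tested was 0.062. Sterol genes above 0 numbered 13 to 15 and fatty acid genes below 0 numbered 5 to 6. With all 4 samples kept, both medians kept their sign in every setting run. Of 294 member values in those settings 3 changed sign, all with quantile normalization: FDPS (-0.0031), HSD17B7 (0.0106) and SCD (0.0045). Without 1 sample 12 members changed sign. Their log2 fold changes ranged from -0.0319 to 0.3588 for HMGCS1, -0.15 to 0.18 for FDPS, -0.2946 to 0.038 for FDFT1, -0.0166 to 0.3004 for SQLE, -0.13 to 0.11 for HSD17B7, -0.6455 to 0.082 for EBP, -0.0782 to 0.1184 for STARD4, -0.60 to 0.25 for FASN, -0.16 to 0.13 for SCD, -0.3088 to 0.077 for ELOVL6, -0.19 to 0.0016 for FADS1 and -0.5588 to 0.0439 for FADS2. Without a sign change, IDI1 ranged from 0.0045 to 0.11 and TM7SF2 from 0.012 to 0.24. The cause of these moves was not tested. TM7SF2 gave no value at a filter of 5 FPKM. Summing rows of a symbol altered nothing, since no member had more than 1 row. Precision is limited by 2 samples a group.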
